A study of Mus musculus with 22 samples.

Results

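The matrix metalloproteinases (MMPs), the ADAMTS proteases (a disintegrin and metalloproteinase with thrombospondin motifs) and their tissue inhibitors (TIMPs) were followed through the conversion of mouse cardiac fibroblasts to cardiomyocyte-like cells. The members were all rows of the deposited normalized table whose gene name was Mmp, Adamts or Timp followed by a number, without regard to their values. There were 44 of them among 34378 gene names: 21 Mmp, 19 Adamts and 4 Timp genes. A further 2 Mmp names occur in the scanner files but not in that table, and were not counted as members. The 38 members tested (17 Mmp, 17 Adamts, 4 Timp) had a probe that both arrays of some group read well above background. Of the tested members 23 were well above background on all 22 arrays. The other 6 were Adamts3, Adamts13, Mmp1a, Mmp7, Mmp25 and Mmp28, whose probes exceeded background on 0 to 2 of the 22 arrays.

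MMPs are zinc-dependent proteases that cut collagens, laminins, fibronectin and other matrix proteins, most of them made as inactive precursors that another protease must cut. ADAMTS proteases are secreted relatives, several of which cut the large proteoglycans aggrecan and versican, while others trim procollagens or fibrillin-bound matrix. TIMPs bind the active site of these enzymes and block it. In heart tissue fibroblasts are one source of many of them, beside leukocytes, endothelial cells and cardiomyocytes, and remodelling after injury is the setting in which they are best known.

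MGT cultures were fibroblasts given a polycistronic retroviral transgene for Mef2c, Gata4 and Tbx5, lacZ cultures were control fibroblasts transduced with lacZ, and day 0 cultures (CF) were the starting fibroblasts. Both vectors were sampled at days 3, 5, 7, 10 and 14. All cells came from CD1 mice of the genotype aMHC-GFP, a reporter in which the alpha myosin heavy chain promoter drives a fluorescent protein. Each of the 11 groups had 2 arrays, 22 in all, and nothing in the labels says that the 2 arrays of a group came from separate cultures, so the p-values rest on a spread between samples that may be technical only. The labels do not give the share of cells that were infected or converted, and fewer cells expressing a gene and less RNA per cell cannot be told apart.

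Levels are log2 of the processed Cy3 intensity minus the array's 75th percentile, so a level is read within a gene and never against another gene. Differences are MGT minus lacZ unless stated, and a call is an adjusted p under 0.05 in limma (Benjamini-Hochberg over all genes tested). The 75th percentile lay between 1285 and 2124 intensity units on 21 arrays and at 729 on day 14 lacZ replicate 2, and the share of spots well above background ran between 48.4% on that array and 71.0%. Of 4 slides, slide 1 held days 3 and 5 and slide 2 held days 7 and 10, each with both vectors. Day 0 and day 14 lacZ shared slide 3, and day 14 MGT was alone on slide 4, so at day 14 vector and slide cannot be told apart. All 12 fibroblast markers were well above background on an array of each kind of culture, and all 9 cardiomyocyte markers were higher in MGT than in lacZ cultures (median averaged difference 6.75). Of the fibroblast markers 9 were lower and 3 were higher in MGT cultures (median -0.40), beside 40.7% of all genes lower and 23.2% higher. The 3 were Thy1 (1.41), Vim (0.20) and S100a4 (0.14). The summed level of the list was 833 to 1370 on MGT arrays, 1270 to 2150 on lacZ arrays and 978 to 1010 at day 0. Of 9 endothelial markers 8 were lower in MGT cultures (median -1.55), with a summed level of 6.62 to 21 on MGT arrays, 10.8 to 35 on lacZ arrays and 31.4 to 33.4 at day 0. The part of either in the members' differences was not tested.

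Averaged over the 5 days, 11 members were higher in MGT cultures, 18 were lower and 9 were not called. Thus 76.3% of the 38 tested members were called, beside 63.9% of all 18061 genes (23.2% higher and 40.7% lower). The median member difference was -0.30, beside -0.09 over all genes; it was -0.12 with the deposited table and 0.00211 over days 3 and 5 alone, both on slide 1. The families split: 3 Mmp genes were higher and 10 lower, 8 Adamts genes were higher and 5 lower, and 3 Timp genes were lower with none higher (1 of them, Timp2, averaged 0.01 with quantile normalization). The Adamts excess rests on dim genes, with Adamts18 and Adamts20 above background on no lacZ array. Of the 11 Adamts genes above background on all 22 arrays, Adamts7, Adamts8 and Adamts15 were higher. Adamts1, Adamts2, Adamts5 and Adamts12 were lower, and the rest were not called. With the percentile taken over probes above background on every array, 12 members were higher and 16 lower, and the share of calls that were higher was 49.2% over all genes, beside 36.4%. Among the 23 members above background on all arrays, 4 were higher and 13 lower. With that filter 9574 of 13512 genes were called, and 32.5% of those calls were higher. With another background correction (normexp, with an offset), averaged differences of several members lay nearer 0 and kept their calls, at 2.61 for Mmp15, 1.75 for Adamts19, 0.74 for Adamts17, 0.67 for Adamts18, 0.54 for Adamts20, 0.46 for Adamts6, 0.61 for Mmp12, -0.65 for Mmp10, -1.14 for Mmp16 and -1.27 for Mmp1b. A member that passed the filter only in the cultures where it is high had to differ, so these shares describe the set and test nothing.

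**Figure D1:**
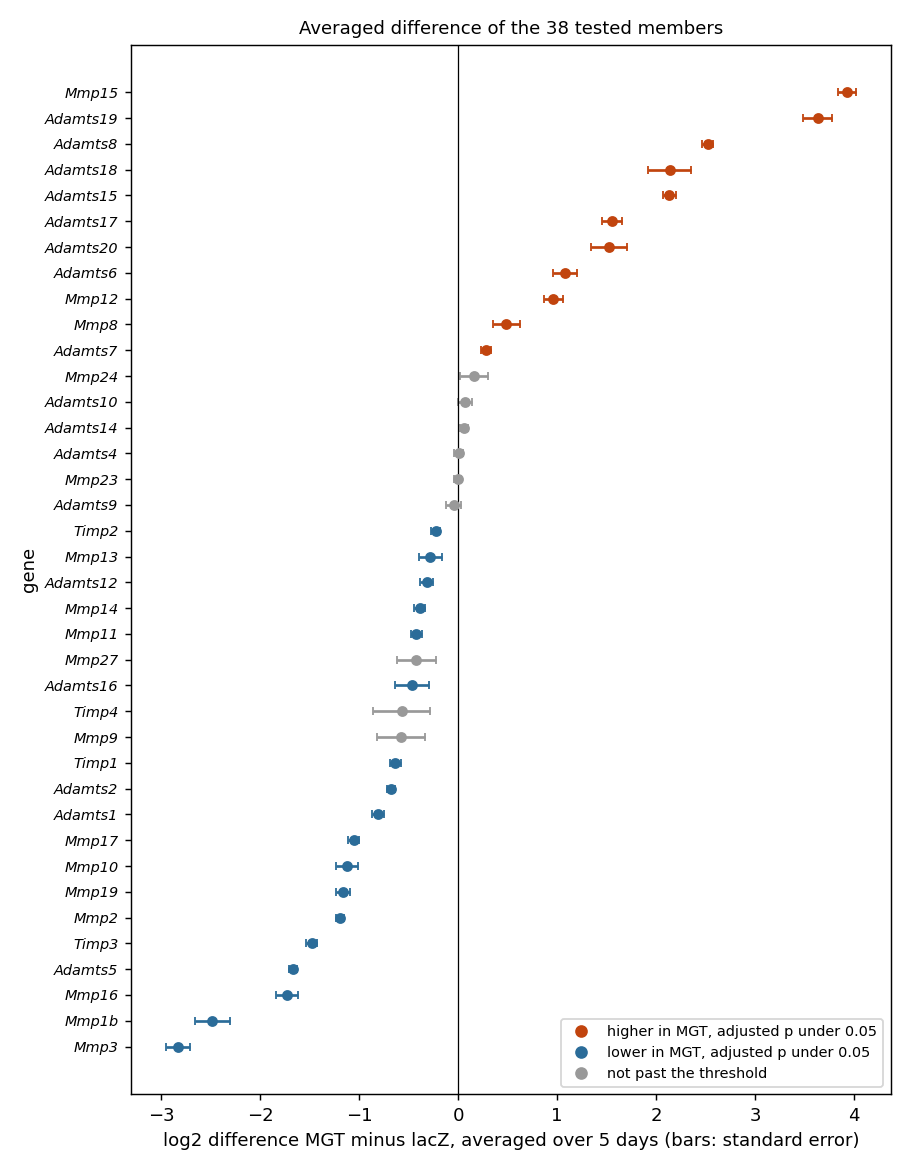
Averaged MGT minus lacZ difference of each of the 38 tested members (horizontal axis, log2; bars are standard errors; vertical axis, genes in order of the difference). Mmp15 at 3.93 and Mmp3 at -2.83 stand at the ends, and the 6 members next below Mmp15 are all Adamts genes, between 1.52 and 3.63.

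Among the stromelysins, matrilysin and elastase (5 members, 4 tested), 3 were lower and 1 higher. Mmp3, stromelysin, cuts proteoglycans and fibronectin and activates precursors of other MMPs. Its levels were 3.14 and 3.16, -0.86 and -0.96, 0.16 and 1.38, -0.64 and -0.09, and -0.13 and -0.19 on the MGT arrays of days 3, 5, 7, 10 and 14, against 4.68 and 4.67, 2.13 and 2.20, 3.45 and 3.45, 2.75 and 2.78, and 3.74 and 3.41 on the lacZ arrays, and 4.33 and 4.21 at day 0. Every MGT array was below both lacZ arrays of its day. The averaged difference was -2.83 (standard error 0.125, adjusted p = 2.5e-10), a 7.11-fold lower level. It was -1.53 at day 3 and -3.74 at day 14, a change of -2.21 (standard error 0.396, adjusted p = 0.0013). Against day 0, Mmp3 in MGT cultures was lower by day 14 (-4.43), and in lacZ cultures it also fell, by 0.70. Both comparisons share the day 0 arrays.

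Mmp10, the second stromelysin, was above background on 7 of 10 MGT arrays and 8 of 10 lacZ arrays. The MGT arrays read -3.87 and -4.08, -5.34 and -5.62, -5.65 and -4.75, -4.82 and -4.96, and -3.98 and -4.24 in day order, against -3.26 and -3.31, -4.74 and -4.52, -3.97 and -3.49, -3.31 and -3.44, and -2.88 and -3.12 in lacZ cultures. The MGT arrays were again below both lacZ arrays on each day, and the averaged difference was -1.13 (standard error 0.11, adjusted p = 9.69e-07). Mmp11, stromelysin-related and cut by furin inside the cell, was at 1.97 ± 0.051 in MGT cultures and 1.97 ± 0.029 in lacZ cultures at day 3 (SD, n = 2 each). By day 14 it was at 1.95 ± 0.076 in MGT cultures, against 2.94 ± 0.31 in lacZ cultures, both above the -0.28 ± 0.080 of day 0.

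Mmp12, macrophage elastase, moved the other way, higher in MGT cultures by 0.96 on average. At day 5 it was at -1.42 ± 0.013 in MGT cultures, against -2.62 ± 0.057 in lacZ cultures, and at day 10 at -1.66 ± 0.12 in MGT cultures, against -2.98 ± 0.14 in lacZ cultures. The gene fell with time in both: at day 14 it was 1.34 below day 0 in MGT cultures and 2.75 below in lacZ cultures. A second Mmp12 probe, above background on 6 of 22 arrays, gave an averaged difference of 0.14, and -1.03 at day 14, where the first gave 1.41. Of 13 macrophage markers tested, none was higher and 1 was lower in MGT cultures on average (median -0.01), beside 23.2% of all genes higher and 40.7% lower. Against day 0 at day 14, 11 of the 13 were higher in MGT cultures and 12 in lacZ cultures, beside 33.1% (MGT) and 35.5% (lacZ) of all genes. Their summed level spanned 61.2 to 257 over MGT arrays, 49.7 to 432 over lacZ arrays and 48.4 to 51.9 over day 0 arrays, with Cd163 above background on none. The part of these cells in the Mmp12 values was not tested.

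Of the 4 collagenases 3 were tested: 2 were lower and 1 was higher on average. Mmp1b, a mouse relative of interstitial collagenase, had MGT levels of -3.48 and -3.45, -6.50 and -7.54, -5.63 and -4.49, -5.75 and -5.94, and -4.86 and -5.65, against lacZ levels of -1.89 and -1.95, -3.82 and -3.62, -3.37 and -2.58, -3.10 and -3.19, and -2.20 and -2.72, over days 3 to 14. No MGT array of day 5 or day 10 was well above background, so the fall there is a bound: at least 2.89-fold lower at day 5 and at least 3.95-fold lower at day 10, with the dim side set at the lowest signal that counts as above background or the probe's own, whichever is higher. Under other settings the fitted log2 difference was as small as -0.94 at day 5 and -1.29 at day 10, smaller falls than these bounds. The averaged difference was -2.48 (standard error 0.18, adjusted p = 4.55e-08), with 6 of 10 MGT and 10 of 10 lacZ arrays above background. Mmp1a, its close copy, was above background on no array, and how much either probe reads the other transcript was not tested.

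Mmp13, the main mouse interstitial collagenase, fell below its day 0 level in both kinds of culture. It was at -1.93 ± 0.031 in day 3 MGT cultures and -2.01 ± 0.024 in day 3 lacZ cultures, against 1.41 ± 0.13 at day 0 (SD, n = 2 each). By day 14 it was at -3.88 ± 0.35 in MGT cultures and -4.47 ± 0.12 in lacZ cultures, 5.29 and 5.88 below day 0 on the log2 scale. MGT and lacZ cultures differed at day 5 (-0.95) and day 7 (-1.0), and were not called apart on the other days. The averaged fall of 0.28 had an adjusted p of 0.049, and the call was lost with the percentile over bright probes (adjusted p = 0.148), the deposited table (0.111), every probe kept (0.0544), a fit without the day 0 arrays (0.0582) and over days 3 and 5 alone (0.0694).

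Mmp8, neutrophil collagenase, was higher in MGT cultures by 0.49 on average (adjusted p = 0.00635) and was called on no single day, nor over days 3 and 5 together (0.31, adjusted p = 0.257). Of 9 neutrophil markers none was higher and 4 were lower in MGT cultures on average (median -0.67), beside 23.2% of all genes higher and 40.7% lower. Mmp8 too was lower at day 14 than at day 0, by 1.43 in MGT cultures and by 2.12 in lacZ cultures. Neutrophil markers were also lower over the same span, 7 of 9 in MGT and 5 of 9 in lacZ cultures. Of all genes, 37.4% (MGT) and 33.4% (lacZ) were lower. The sums that follow are of the neutrophil markers. Their summed level was 50 to 93 over MGT arrays, 37.4 to 81.5 over lacZ arrays and 72.7 to 80.2 over day 0 arrays, and Cxcr2 was above background on no lacZ or day 0 array. Csf3r (mean log2 level 6.07 in MGT and 5.95 in lacZ cultures, not called) makes up most of that sum. Elane comes next (2.39 and 2.94), so the sum mainly follows Csf3r and is no measure of the list as a whole. The part of neutrophils in the Mmp8 values was not tested.

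**Figure D2:**
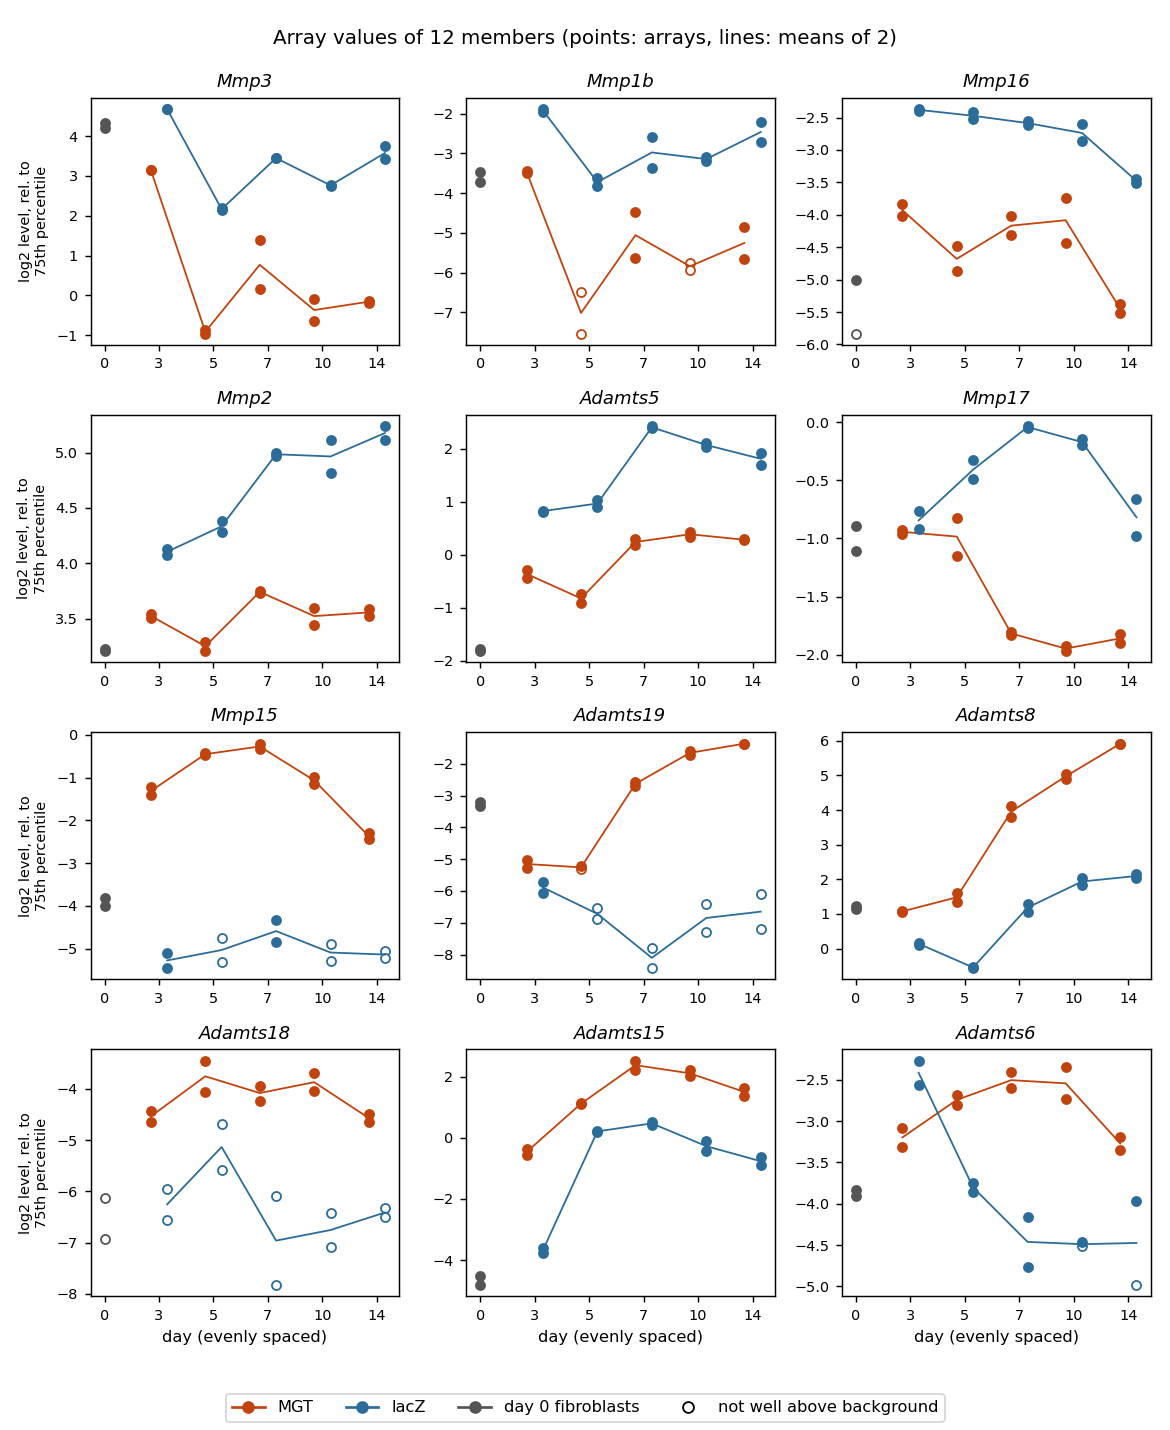
Array values of 12 members by day (horizontal axis, days 0 to 14, evenly spaced; vertical axis, log2 level relative to the array's 75th percentile; points are arrays, lines join means of 2, open points are not well above background). Mmp3 and Mmp2 lie lower in MGT than in lacZ cultures on all 5 days and Mmp15 and Adamts8 higher, while Adamts6 crosses between days 3 and 5.

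Most of the Mmp genes described so far lie side by side. Along mouse chromosome 9 (mm9, where the probes of the cluster lie between positions 7282762 and 7697700, 415 kb) the order is Mmp13, Mmp12, Mmp1b, Mmp3, Mmp1a, Mmp10, Mmp8, Mmp27 and Mmp7, with a gene that is no member before Mmp7. Neighbours moved apart: Mmp12 was higher and Mmp1b, whose probe lies 14.8 kb away, was lower, and Mmp10 was lower while Mmp8, 58.2 kb on, was higher. Mmp27 was not called (-0.42, adjusted p = 0.0756) and Mmp1a and Mmp7 were not tested. Elsewhere, Adamts1 and Adamts5 on chromosome 16 (63.3 kb between probes) were both lower, and Adamts15 and Adamts8 on chromosome 9 (63.3 kb) both higher. Adjacency was read from the order of protein-coding genes in RefSeq.

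**Figure D3:**
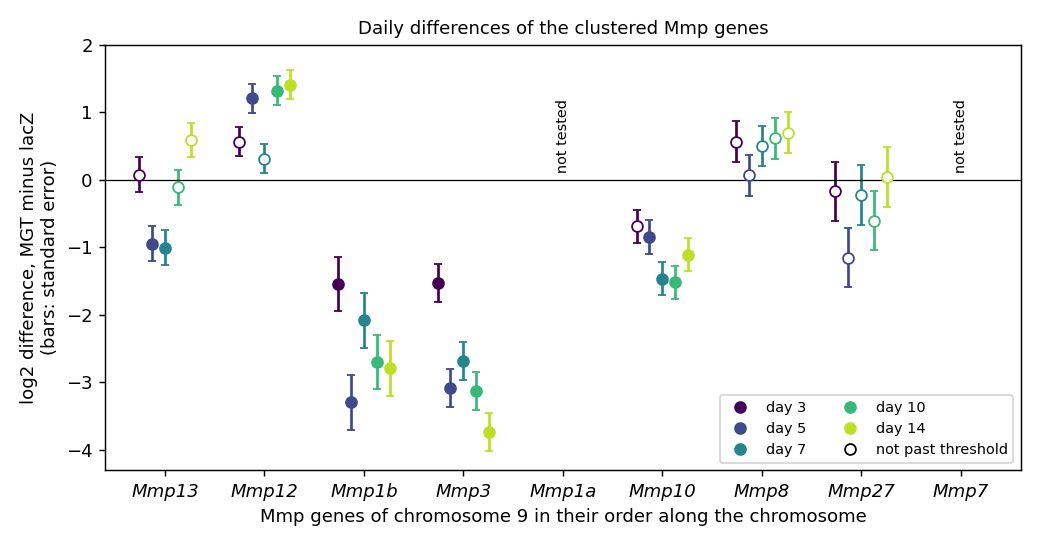
MGT minus lacZ difference on each day (vertical axis, log2; bars are standard errors; open points not past the threshold) for the Mmp genes of the chromosome 9 cluster in chromosomal order (horizontal axis). Mmp1b and Mmp3 are lower on all 5 days, and Mmp12 between them and Mmp13 is higher on days 5, 10 and 14.

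The region before the start of these genes is printed because 1 motif occurs there in most genes of the cluster and in no member outside it whose window was searched. RefSeq promoter windows (GRCm38.p6, 250 bases before to 50 after the annotated start) were at hand for 30 of the 44 members. The AP-1 consensus TGANTCA, where N is any base and both strands read alike, was in windows of 7 of them: Mmp1a, Mmp1b, Mmp3, Mmp7, Mmp10, Mmp12 and Mmp13, all of the cluster. It was in 7.81% of 32851 windows of all genes. No other member that was searched held it, nor did Mmp8 and Mmp27 of the cluster. Of the 7, Mmp3, Mmp1b, Mmp10 and Mmp13 were lower, Mmp12 was higher, and Mmp1a and Mmp7 were not tested. A further 4 motifs were searched on both strands. The MEF2 consensus CTANNNNTAG (3.69% of all windows) and the T-box half-site AGGTGT (13.7%) were in no member window that was searched. The GATA letters AGATAA (11.2%) were in Mmp7, Mmp24 and Mmp27, and the TATA box TATAAA (13.6%) was in 9, the 7 above with Mmp8 and Adamts1. No match of one motif overlapped a match of another. These are matches of letters, not sites. The 120 bases before the start follow, 5′ to 3′ on the gene's strand, with the AP-1 letters in capitals; Mmp15 is added as a member that was higher on all 5 days and had no match.
Mmp3 (chr9:7445702-7445821, plus strand): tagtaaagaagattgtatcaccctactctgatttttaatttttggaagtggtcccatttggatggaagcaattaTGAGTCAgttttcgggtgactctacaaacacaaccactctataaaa
Mmp1b (chr9:7388027-7388146, minus strand): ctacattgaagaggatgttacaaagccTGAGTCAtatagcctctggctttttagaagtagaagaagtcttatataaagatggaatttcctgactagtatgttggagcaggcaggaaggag
Mmp10 (chr9:7502222-7502341, plus strand): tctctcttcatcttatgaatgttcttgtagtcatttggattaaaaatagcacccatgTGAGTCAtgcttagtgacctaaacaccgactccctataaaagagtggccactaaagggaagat
Mmp13 (chr9:7272394-7272513, plus strand): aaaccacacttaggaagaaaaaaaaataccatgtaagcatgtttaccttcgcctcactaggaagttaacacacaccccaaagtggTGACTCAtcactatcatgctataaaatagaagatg
Mmp12 (chr9:7347254-7347373, plus strand): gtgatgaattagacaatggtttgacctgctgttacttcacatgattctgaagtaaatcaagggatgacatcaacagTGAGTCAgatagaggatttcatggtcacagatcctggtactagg
Mmp15 (chr8:95352176-95352295, plus strand): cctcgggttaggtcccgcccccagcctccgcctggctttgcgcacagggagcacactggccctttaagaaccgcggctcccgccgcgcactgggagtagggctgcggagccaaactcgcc

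In Mmp13 the match begins 35 bases before the start, in Mmp12 44, in Mmp3 46, in Mmp10 63 and in Mmp1b 93. Of the 2 starts listed for Mmp12, the one with the match is shown. The Mmp15 window had 70.0% G and C, against 35.8% to 40.8% in the others.

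Both gelatinases, which cut denatured collagen and basement membrane collagen, were tested, and 1 was lower on average. Mmp2 was at 3.54 and 3.50, 3.21 and 3.29, 3.73 and 3.75, 3.60 and 3.45, and 3.59 and 3.52 on the MGT arrays of days 3 to 14, against 4.13 and 4.07, 4.28 and 4.38, 5.0 and 4.97, 5.12 and 4.81, and 5.24 and 5.12 on the lacZ arrays and 3.21 and 3.22 at day 0. The ranges of MGT arrays (3.21 to 3.75) and lacZ arrays (4.07 to 5.24) did not meet, and the averaged difference was -1.19 (standard error 0.0392, adjusted p = 1.18e-11), a 2.29-fold lower level. In lacZ cultures Mmp2 was 1.96 above day 0 by day 14, and in MGT cultures 0.34 above. Mmp9 was called at day 14 only, where it was at -5.18 ± 0.69 in MGT cultures, against -1.77 ± 0.28 in lacZ cultures (-3.41 (standard error 0.544, adjusted p = 0.000201)). At day 5 no array of either kind was above background, and the averaged difference missed the threshold (-0.57, adjusted p = 0.0541). At day 14, 3 of 13 macrophage markers were lower in MGT cultures (median -0.58), beside 29.3% of all genes. Their part in the Mmp9 value was not tested.

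Membrane-type MMPs are held at the cell surface, where Mmp14, with Timp2, activates the precursor of Mmp2. Of 5 tested, 3 were lower and 1 was higher. Mmp15 and Adamts19 showed the highest averaged differences of all members in the fit of all arrays. Mmp15 came first there, while Adamts19 was level with it under quantile normalization (3.90 for Mmp15 and 3.91 for Adamts19) and above it over days 7 and 10 (4.17 and 5.33). On MGT arrays it stood at -1.22 and -1.41, -0.43 and -0.48, -0.20 and -0.34, -0.99 and -1.14, and -2.31 and -2.43, against -5.10 and -5.45, -5.30 and -4.76, -4.84 and -4.34, -4.89 and -5.29, and -5.06 and -5.22 in lacZ cultures over days 3 to 14, and -3.82 and -4.0 at day 0. It was above background on 10 of 10 MGT arrays and 4 of 10 lacZ arrays, and the ranges of the arrays (-2.43 to -0.20 in MGT and -5.45 to -4.34 in lacZ cultures) did not meet. The difference was at least 17.3-fold at day 5, at least 16.3-fold at day 10 and at least 5.09-fold at day 14, where no lacZ array was above background, and the averaged value was 3.93 (standard error 0.0896, adjusted p = 2.84e-13). Under other settings the fitted log2 difference went down to 3.18, 2.64 and 1.23 on those days, below these bounds. Relative to day 0, Mmp15 was higher in MGT cultures (2.60 at day 3, 1.54 at day 14) and lower in lacZ cultures, by 1.36 at day 3 and at least 1.74-fold at day 14. The comparisons with day 0 share those arrays.

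Mmp16, another transmembrane MMP, ran opposite. Its levels were -4.02 and -3.83, -4.87 and -4.49, -4.32 and -4.02, -4.43 and -3.73, and -5.38 and -5.52 in MGT cultures, against -2.39 and -2.37, -2.53 and -2.42, -2.56 and -2.61, -2.61 and -2.87, and -3.50 and -3.45 in lacZ cultures and -5.83 and -5.01 at day 0. Both kinds of culture stood above day 0 at day 3, the lacZ cultures by 3.04, and the averaged difference was -1.73 (standard error 0.112, adjusted p = 1.33e-08), a 3.32-fold lower level. Mmp17, which is anchored by a lipid, was not called at day 3 (-0.10) and was lower from day 5 on. Its levels were -0.96 and -0.92, -1.15 and -0.82, -1.83 and -1.80, -1.93 and -1.97, and -1.82 and -1.90 in MGT cultures, against -0.77 and -0.92, -0.49 and -0.32, -0.03 and -0.05, -0.14 and -0.20, and -0.66 and -0.97 in lacZ cultures. The difference was -1.78 at both day 7 and day 10, and -1.06 on average (2.08-fold lower). Mmp14 was lower by 0.39 on average, called on days 5 to 14 and at day 14 at 1.80 ± 0.011 in MGT cultures, against 2.36 ± 0.27 in lacZ cultures. Mmp24 was dim and not called (0.16, adjusted p = 0.353).

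Of the remaining MMPs, Mmp19 was at -2.56 and -2.50, -3.58 and -3.40, -2.91 and -2.58, -2.72 and -2.51, and -2.48 and -2.43 in MGT cultures, against -1.83 and -1.86, -1.78 and -1.87, -1.64 and -1.87, -1.45 and -1.48, and -0.85 and -1.39 in lacZ cultures. The groups did not overlap on any day, and the averaged difference was -1.16 (standard error 0.072, adjusted p = 8.47e-09), a 2.24-fold lower level. Mmp23, a membrane protein lacking the hemopexin domain of other MMPs, was not called between vectors on average (-0.01, adjusted p = 0.893) and was higher than day 0 in both: at day 14 it was at 4.21 ± 0.083 in MGT cultures and 4.02 ± 0.073 in lacZ cultures, against 1.46 ± 0.038 at day 0. Mmp27 was above day 0 at day 3 by 2.38 in MGT cultures and by 2.55 in lacZ cultures.

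The proteoglycan-cutting ADAMTS genes, all 7 tested, divided 3 higher, 2 lower and 2 not called. Adamts8, an aggrecan-cutting protease, was higher in MGT cultures on every day. MGT levels ran at 1.06 and 1.09, 1.62 and 1.34, 4.12 and 3.80, 5.04 and 4.91, and 5.92 and 5.91 over days 3, 5, 7, 10 and 14, against 0.11 and 0.16, -0.53 and -0.56, 1.07 and 1.30, 2.05 and 1.83, and 2.16 and 2.04 in lacZ cultures and 1.22 and 1.14 at day 0. The difference was 0.94 at day 3 and 3.82 at day 14, a change of 2.88 (standard error 0.17, adjusted p = 1.61e-07). Averaged it was 2.52 (standard error 0.0536, adjusted p = 1.53e-13), a 5.73-fold higher level. A second Adamts8 probe gave 1.30, also higher on each day.

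Adamts15, next to Adamts8 and able to cut the same proteoglycans, was also higher in MGT cultures on every day. Array by array, MGT levels were -0.37 and -0.56, 1.13 and 1.10, 2.52 and 2.22, 2.20 and 2.01, and 1.62 and 1.37, against -3.60 and -3.75, 0.19 and 0.23, 0.53 and 0.41, -0.11 and -0.44, and -0.64 and -0.90 in lacZ cultures and -4.82 and -4.52 at day 0. Both kinds of culture ended above day 0, by 6.16 in MGT and 3.90 in lacZ cultures at day 14. The averaged difference was 2.13 (standard error 0.0668, adjusted p = 7.25e-12), a 4.38-fold higher level. It was 3.21 at day 3, where lacZ cultures were still 0.99 above day 0, and 0.91 at day 5. Adamts20, a versican-cutting protease known for its part in mouse coat pigment, was above background on 4 MGT arrays (days 7 and 14) and on no lacZ array. It passed the filter only through those MGT groups, so its calls test nothing. Its MGT levels were -6.39 and -6.37, -6.45 and -6.48, -5.16 and -4.90, -6.28 and -5.69, and -5.21 and -5.04, against -8.31 and -8.12, -7.13 and -6.61, -7.84 and -8.44, -6.46 and -7.28, and -7.23 and -5.78 in lacZ cultures. A bound could be set at day 7, where it was at least 1.86-fold higher.

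Adamts5, a major aggrecanase, was lower in MGT cultures throughout. Its levels were -0.44 and -0.28, -0.74 and -0.91, 0.18 and 0.29, 0.34 and 0.43, and 0.29 and 0.27 on MGT arrays, against 0.83 and 0.81, 1.04 and 0.89, 2.38 and 2.42, 2.11 and 2.03, and 1.92 and 1.69 on lacZ arrays and -1.81 and -1.78 at day 0. The MGT range ended at 0.43 and the lacZ range began at 0.81. The averaged difference was -1.67 (standard error 0.0392, adjusted p = 3.95e-13), a 3.18-fold lower level, although both kinds of culture were above day 0 at day 14, by 2.08 in MGT and 3.60 in lacZ cultures. Adamts1, its neighbour, was 1.76-fold lower on average (-0.81), with a difference that widened to -1.33 at day 14 beside -0.44 at day 3.

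Adamts4 and Adamts9 were not called on average and were called both ways by day. Adamts9 was at 1.41 ± 0.13 in MGT cultures at day 5, against 0.61 ± 0.042 in lacZ cultures, and at -0.05 ± 0.044 in MGT cultures at day 14, against 0.95 ± 0.56 in lacZ cultures. Its difference changed by -1.51 (standard error 0.246, adjusted p = 0.000668). Adamts4 was higher in MGT cultures at day 5 (0.69) and lower at day 14 (-0.48).

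Of the procollagen N-proteinases, which cut the amino-terminal propeptide from procollagens, Adamts2 was 1.61-fold lower on average in MGT cultures (-0.68) and Adamts14 was not called (0.06, adjusted p = 0.227). Adamts2 was nonetheless above day 0 at day 14, by 1.17 in MGT cultures and 1.86 in lacZ cultures. Adamts14 was below day 0 at day 14, by 0.88 in MGT cultures and 0.97 in lacZ cultures.

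Among the other ADAMTS genes (9 members, 8 tested) 5 were higher and 2 lower. Adamts19, whose loss causes heart valve disease in humans and mice, was above background on 2 of 10 lacZ arrays, so that its averaged difference rests largely on dim values, and its rank moves: it was below Adamts8 (2.46) and Adamts15 (1.88) with normexp. The MGT arrays read -5.26 and -5.04, -5.30 and -5.21, -2.56 and -2.69, -1.59 and -1.72, and -1.36 and -1.37, against -6.08 and -5.70, -6.89 and -6.54, -7.78 and -8.42, -6.42 and -7.28, and -7.20 and -6.10 in lacZ cultures, and -3.34 and -3.20 at day 0. It was thus present in the starting fibroblasts, was lower in both kinds of culture at day 3 (by 1.88 in MGT and by 2.62 in lacZ cultures), and at days 7 to 14 it was higher in MGT than in lacZ cultures by more than 5 on the fitted scale. From day 5 on no lacZ array was above background. The difference was at least 9.85-fold at day 7, at least 23.6-fold at day 10 and at least 10.2-fold at day 14, and the fitted average was 3.63 (standard error 0.148, adjusted p = 1.05e-10). Under other settings the fitted log2 difference went down to 2.21, 2.90 and 2.76 on those days, below these bounds. By day 14 MGT cultures were 1.90 above day 0.

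Adamts18 was above background on all 10 MGT arrays and on none of the 10 lacZ arrays or 2 day 0 arrays. It therefore passed the filter only through MGT groups, so its calls were favoured by that choice and test nothing. On MGT arrays it stood at -4.43 and -4.65, -4.06 and -3.45, -4.23 and -3.94, -3.70 and -4.04, and -4.49 and -4.65, against -6.55 and -5.95, -5.59 and -4.69, -7.83 and -6.09, -6.42 and -7.09, and -6.50 and -6.33 in lacZ cultures. The averaged fit gave 2.14 (standard error 0.218, adjusted p = 1.48e-06), and over the arrays the level was at least 2.46-fold higher on this scale. With normexp the fitted difference of 0.67 is smaller than that bound, and it was 1.37 with the deposited table. Adamts17, whose human gene is linked to a connective tissue syndrome with short stature, had MGT levels of -4.25 and -4.39, -2.38 and -2.91, -2.13 and -2.64, -2.33 and -2.77, and -3.27 and -3.10, against -6.19 and -6.54, -6.11 and -5.86, -3.32 and -3.21, -3.26 and -3.63, and -3.73 and -3.83 in lacZ cultures. It was at least 3.1-fold higher at day 3 and at least 3.78-fold higher at day 5, and 0.60 higher at day 14. Under other settings the fitted log2 difference went down to 0.73 at day 3 and 1.09 at day 5, below these bounds. A second Adamts17 probe, above background on 9 of 22 arrays, gave an averaged difference of 0.18. By day that probe gave 0.38, -0.46, 0.68, -0.13 and 0.45, so its direction at days 5 and 10 was the other. The deposited table gave 0.65 on average.

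Adamts6, needed for heart development in mice, turned its direction. MGT levels ran at -3.31 and -3.09, -2.68 and -2.80, -2.41 and -2.60, -2.35 and -2.74, and -3.19 and -3.34, against -2.27 and -2.56, -3.75 and -3.86, -4.16 and -4.76, -4.52 and -4.46, and -3.96 and -4.99 in lacZ cultures. It was lower in MGT cultures at day 3 (-0.78) and higher at day 5 (1.06), day 7 (1.96), day 10 (1.95) and day 14 (1.21). The change between days 3 and 14 was 1.99 (standard error 0.38, adjusted p = 0.002), and with normexp it was 0.54 (adjusted p = 0.0814). The averaged difference was 1.08 (standard error 0.12, adjusted p = 3.58e-06), but over days 3 and 5 alone it was 0.14 (adjusted p = 0.595).

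Adamts7 and Adamts12, which cut cartilage oligomeric matrix protein, parted: Adamts7 was higher by 0.29 on average and Adamts12 lower by 0.32. Adamts12 was called at days 10 and 14 only, and its averaged call was lost with the mean of all its probes (-0.43, adjusted p = 0.0595). Adamts10 was not called on average (0.07) and was above day 0 at day 14 in MGT (2.35) and lacZ cultures (2.25). Adamts16 was dim, above background on 5 of 10 MGT and 6 of 10 lacZ arrays, and lower by 0.46 (adjusted p = 0.0299). That call was lost with the deposited table (-0.00959, adjusted p = 0.931), with the percentile over bright probes (adjusted p = 0.0647), over days 3 to 10 (0.0649) and within slides 1 (0.322) and 2 (0.126).

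The inhibitors were lower in MGT cultures in 3 of 4 cases and higher in none, the 3 including Timp2, whose averaged difference was 0.01 with quantile normalization. Timp3, which binds the matrix and inhibits Adamts4 and Adamts5 as well as MMPs, showed the largest difference of the 4. Its levels were 5.02 and 5.07, 5.26 and 5.20, 5.91 and 6.0, 6.27 and 6.60, and 6.16 and 6.31 on MGT arrays, against 5.99 and 6.10, 6.64 and 6.59, 7.47 and 7.63, 7.95 and 7.82, and 8.01 and 8.42 on lacZ arrays and 4.96 and 4.84 at day 0. Every MGT array was below both lacZ arrays of its day, and the averaged difference was -1.48 (standard error 0.058, adjusted p = 7.01e-11), a 2.79-fold lower level. The lacZ cultures climbed to 3.31 above day 0 by day 14 and the MGT cultures to 1.33. The difference was -1.0 at day 3 and -1.98 at day 14 (change -0.99 (standard error 0.184, adjusted p = 0.00167)), and with the deposited table the change was -0.36 and not called (adjusted p = 0.138).

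Timp1, a broad MMP inhibitor induced in fibroblasts by cytokines, had MGT levels of 5.80 and 5.90, 5.88 and 6.10, 4.88 and 5.10, 5.22 and 5.31, and 5.80 and 5.77, against lacZ levels of 6.30, 6.59 and 6.63, 5.41 and 5.71, 6.03 and 5.86, and 6.53 and 6.74, and 7.52 and 7.51 at day 0. The spot of 1 day 3 lacZ array was marked as an outlier, so that group has 1 value. The averaged difference was -0.63 (standard error 0.055, adjusted p = 5.93e-07), a 1.55-fold lower level, and the calls at days 5, 10 and 14 held in the alternatives run. The day 3 difference (-0.45, adjusted p = 0.0328) takes its spread from the other groups, and its call was lost without MGT replicate 1 (adjusted p = 0.132) or 2 (0.063). At day 7 the call was lost when only that day's arrays were fitted (adjusted p = 0.0556). Timp1 was below day 0 in both kinds of culture, at day 14 by 1.73 in MGT and by 0.88 in lacZ cultures.

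Timp2, the partner of Mmp14 at the cell surface, was at 7.57 and 7.68, 7.97 and 8.08, 8.24 and 8.09, 8.14 and 8.20, and 7.94 and 7.80 in MGT cultures, against 7.70 and 7.75, 8.29 and 8.27, 8.41 and 8.49, 8.5 and 8.15, and 8.14 and 8.27 in lacZ cultures and 6.54 and 6.68 at day 0. The groups lay close: the averaged difference was -0.23 (standard error 0.0468, adjusted p = 0.000875), with calls at day 7 (-0.29, adjusted p = 0.0469) and day 14 (-0.33, adjusted p = 0.019). With quantile normalization the day 14 difference was 0.39 and it was 0.22 from the deposited table, both in the other direction, and a second probe gave 0.03 at day 14. The day 14 call was lost without lacZ replicate 2 (adjusted p = 0.109) or MGT replicate 2 (0.136), and the averaged call with the deposited table (-0.06, adjusted p = 0.11). Both kinds of culture were above day 0 at day 14, by 1.26 in MGT and 1.59 in lacZ cultures.

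Timp4, the inhibitor best known for its expression in heart, was dim, with 7 of 10 MGT and 6 of 10 lacZ arrays above background. Its levels were -5.56 and -4.93, -5.29 and -5.50, -5.04 and -5.21, -4.90 and -5.20, and -4.84 and -4.79 in MGT cultures, against -5.26 and -5.82, -4.64 and -4.33, -4.52 and -5.00, -4.21 and -4.78, and -4.95 and -2.05 in lacZ cultures and -4.52 and -3.67 at day 0. No comparison called it in the main fit of all arrays, and the averaged difference was -0.57 (standard error 0.29, adjusted p = 0.103). For day 3 lacZ against day 0 it was called with quantile normalization (-1.545, adjusted p = 0.0488) and the deposited table (-1.256, adjusted p = 0.0355). At day 14 the lacZ arrays stood at -4.95 and -2.05, and without the higher of them (replicate 2) the difference was 0.13 in place of -1.32. Without the lower (replicate 1) it was -2.77 (adjusted p = 7.22e-05) and the average was -0.86 (adjusted p = 0.000213), both called, and with normexp on all arrays the day 14 difference was called at -1.24 (adjusted p = 0.0229).

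**Figure D4:**
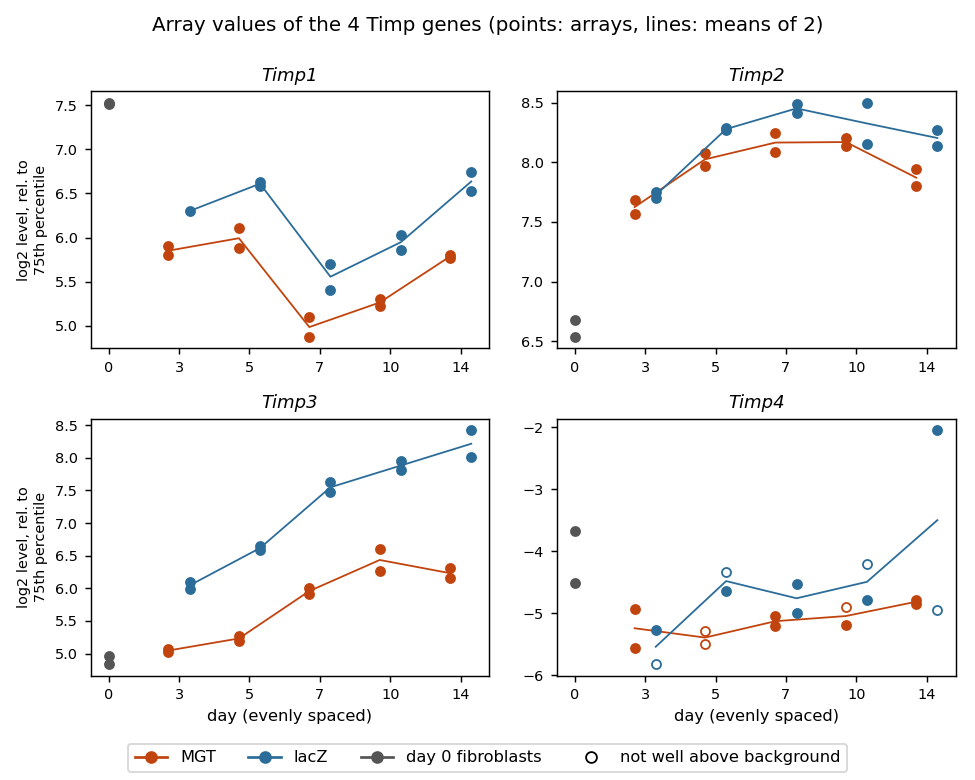
Array values of the 4 Timp genes by day (horizontal axis, days 0 to 14, evenly spaced; vertical axis, log2 level relative to the array's 75th percentile; points are arrays, lines join means of 2, open points are not well above background). Timp3 lies lower in MGT than in lacZ cultures on each day, and Timp1 is lower in both than its day 0 level of 7.51 and 7.52.

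Taken by day, 9 members were higher and 10 lower in MGT cultures on day 3, when 50% of the 38 were called beside 30.4% of all genes (12.3% higher and 18.1% lower). On day 5, 10 were higher and 14 lower (63.2%, beside 38.1% of all genes, 16.2% higher and 21.9% lower). On day 7, 8 were higher and 17 lower (65.8%, beside 37.3%, 14.9% higher and 22.4% lower). On day 10, 9 were higher and 15 lower (63.2%, beside 39.3%, 15.2% higher and 24.2% lower). On day 14, 10 were higher and 19 lower (76.3%, beside 47.6%, 18.2% higher and 29.3% lower). The median member difference was 0.03, -0.16, -0.24, -0.38 and -0.52 in day order, beside -0.06, -0.06, -0.07, -0.11 and -0.09 over all genes. The members higher on all 5 days numbered 5 (Adamts8, Adamts15, Adamts17, Adamts18 and Mmp15) and 9 were lower on all 5 (Adamts1, Adamts5, Mmp1b, Mmp2, Mmp3, Mmp16, Mmp19, Timp1 and Timp3). Of these, Timp1 at day 3 has 1 lacZ value and lost its call without either MGT replicate, and Mmp1b lost its day 3 call without lacZ replicate 1 (adjusted p = 0.0563) or MGT replicate 1 (0.053). For Adamts17 a second, dim probe was lower in MGT cultures at day 5 (-0.46) and day 10 (-0.13). The day 3 count includes Adamts20 and the day 5 count Mmp10, each called with no array of either vector above background. Adamts18 and Adamts20 passed the filter only through MGT groups, so their calls test nothing. The day 3 count was 12 without day 3 lacZ replicate 1 and 12 without day 3 MGT replicate 1. The day 14 count was 19 when only its own 4 arrays were fitted (5 higher and 14 lower), 27 with normexp (5 higher and 22 lower), and 26 without the dim day 14 lacZ replicate 2.

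**Figure D5:**
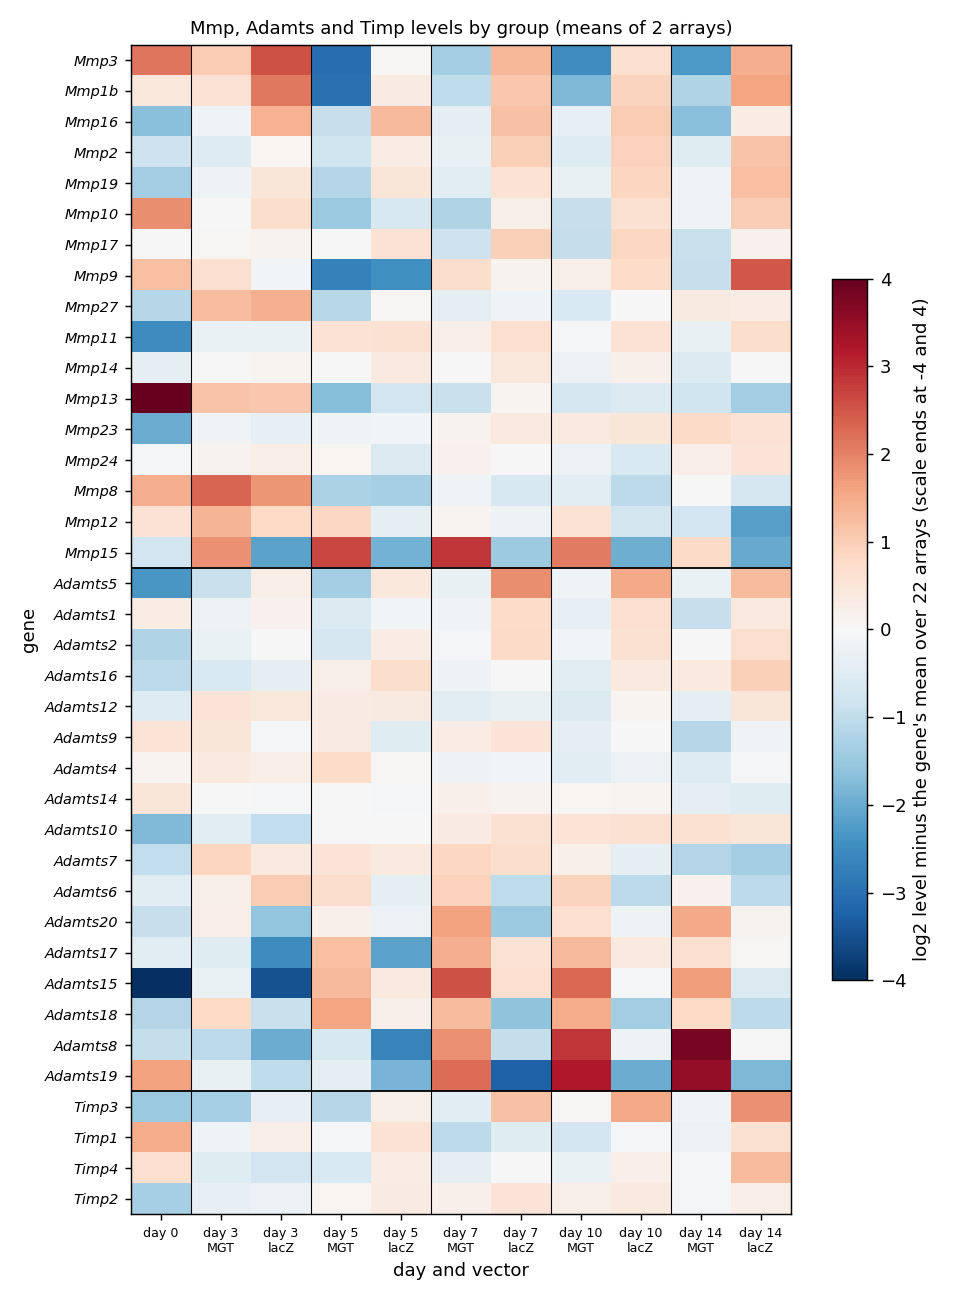
Mean level of each tested member in each group (columns, day 0 and then MGT and lacZ of each day) as a log2 difference to the gene's own mean over 22 arrays (colour, ends at -4 and 4). Mmp13 is darkest red at day 0, Adamts8 and Adamts19 turn red on the later MGT columns, and Mmp15 is red in MGT and blue in lacZ columns.

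The change of the difference between day 3 and day 14 was called for 17 members, 3 of them positive (Adamts19, Adamts8 and Adamts6) and 14 negative, 44.7% beside 27.6% of all genes (12.3% positive and 15.3% negative). The largest negative change was that of Mmp9 (-4.15 (standard error 0.769, adjusted p = 0.00162)). This change compares days on different slides.

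Against the starting fibroblasts, more members were higher than lower in each comparison. At day 3, 21 were higher and 7 lower in MGT cultures (73.7%, beside 62.4% of all genes, 29.3% higher and 33.1% lower). In lacZ cultures 17 were higher and 9 lower (68.4%, beside 57.8%, 28.8% higher and 29% lower). At day 14, 18 were higher and 13 lower in MGT cultures (81.6%, beside 70.5%, 33.1% higher and 37.4% lower). In lacZ cultures 18 were higher and 11 lower (76.3%, beside 68.9%, 35.5% higher and 33.4% lower). All 4 share the 2 day 0 arrays, and those of day 3 and of day 14 MGT also cross slides. By group, all 3 tested collagenases were lower than at day 0 in day 14 MGT cultures, and 2 were lower and 1 higher (Mmp1b) in day 14 lacZ cultures. Of the 7 proteoglycan-cutting ADAMTS genes, 4 were higher and 3 lower at day 14 in MGT cultures, and 4 higher and 1 lower in lacZ cultures.

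The genes around these proteases were read from 5 lists, whose counts stand beside 63.9% of all genes called in the same averaged comparison (23.2% higher and 40.7% lower). Of the protease activators and the plasminogen system, 21 of 22 genes were tested, and averaged over days 5 were higher and 11 lower in MGT cultures (median -0.26). They include Tll1 (-1.63), which cuts procollagen at its carboxy-terminal end, and the proprotein convertases Pcsk5 (1.16) and Pcsk6 (-1.09), which cut precursors of MMPs and ADAMTS proteases. Tmprss6 (-1.54) was above background on 1 MGT and 3 lacZ arrays. Of 16 other protease inhibitors tested, 4 were higher and 7 lower (median -0.35). The serpin Serpine2, an inhibitor of thrombin and plasminogen activators, was at 3.54 in MGT cultures, against 1.72 in lacZ cultures (1.82), and Serpinf1 at 3.29 in MGT cultures, against 5.43 in lacZ cultures (-2.15). Cst6 (-1.17), a cystatin, and Tfpi2 (-1.08) were also lower.

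Of 15 ADAMTS-like and ADAM genes, 6 were higher and 6 lower (median 0.02). ADAMTS-like proteins share the ADAMTS ancillary domains and have no protease domain. Adamtsl1 was higher by 2.84 and Adamtsl2 by 1.56, while the ADAM genes Adam12 (-1.56) and Adam23 (-1.36) were lower. Of 25 matrix substrates, 7 were higher and 12 lower (median -0.22). Aggrecan (Acan), the proteoglycan that aggrecanases cut, averaged 0.46 in MGT cultures, against -3.62 in lacZ cultures, a difference of 4.08 (standard error 0.103, adjusted p = 8.18e-13). Col3a1 was lower by 1.84, and Col2a1 (1.71) and Bcan (1.55), a brain proteoglycan, were higher.

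Of 28 inducers and regulators of MMP transcription, 7 were higher and 12 lower (median -0.11, beside -0.09 over all genes), a share near the 63.9% of all genes. Fosl1, a subunit of AP-1, was at -3.15 in MGT cultures, against -1.58 in lacZ cultures (-1.57), and Il6 was lower by 1.32. Tgfb2 (1.44) and Lif (1.21) were higher. Against day 0, 22 of these 28 were lower in day 14 MGT cultures (median -1.49) and 19 in day 14 lacZ cultures (median -1.57), beside 37.4% (MGT) and 33.4% (lacZ) of all genes lower.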

How the data were processed

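RNA samples from mouse cultures, 22 in all, were hybridised as 1-colour (Cy3) samples to Agilent 8x60K arrays, 1 array each. Whether the samples of a group came from separate cultures is not stated in the labels. Per the file headers, Agilent Feature Extraction 10.7.3.1 gave the deposited spot intensity, background-subtracted and detrended within an array, with positions in mm9. The other deposited file is a table of normalized intensity with 34378 gene names. The submitters' processing notes name limma, and no source used here gives the table's scaling. It served as an alternative and to list the members.

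From the scanner files, log2 of the processed intensity minus the array's 75th percentile was computed. Control and outlier spots were dropped, and none was saturated. A probe had to be well above background on both arrays of some group, which kept 38813 of 55681. The kept probe with the highest mean stood for its gene, which gave 18062 genes. limma 3.58.1 (R 4.3.3) fitted 11 group means with moderated variances, with 11 residual degrees of freedom. P-values were adjusted over all genes by Benjamini-Hochberg, with a threshold of 0.05. The fit was tested on simulated data. The number of arrays limits the precision.

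Where no array of a group was well above background, a fold is given as "at least". The bright group's mean is then set against a floor for the dim group: on each array, the probe's own value or the lowest value that any probe well above background had, whichever is higher. Such a bound holds on this scale only, and fitted differences under other settings lay below several of these bounds.

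The gene families and the gene lists were chosen with earlier results of these data known. Within the families, members were taken by name alone. Array values are given for Timp genes and for members whose averaged difference was called and at least 1 in size. Statistics are given for the 8 largest averaged changes each way, the 4 largest each way in other comparisons, the 6 largest each way in the change between days, and all Timp genes. Other members are described by their levels and differences, with an adjusted p for a few of them (Mmp8, Mmp9, Mmp13, Mmp23, Mmp24, Mmp27, Adamts14 and Adamts16) that were chosen after their values were seen. Of each list, up to 4 genes with the largest averaged difference are named. Replicate numbers did not pair the samples: over 55 pairs of groups, deviations correlated between -0.0907 and 0.156, and 3 pairs exceeded 0.1. Alternatives changed the background correction, the normalization, the filter, the choice of probe, the arrays fitted, a replicate block and each array left out. A slide block could not be fitted, since each group lies on 1 slide. Promoter sequences and gene order come from RefSeq (GRCm38.p6), matched by symbol.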

Additional observations from a re-analysis of the deposited data

Results flagged for a closer look

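For 17 members the difference between MGT and lacZ cultures at day 14 differed from that at day 3, by the test of the change itself in limma (adjusted p under 0.05). On the log2 scale the change was positive for 3: 4.55 for Adamts19, 2.88 for Adamts8 and 1.99 for Adamts6, which turned direction. It was negative for 14. Among Mmp genes it was -4.15 for Mmp9, -2.21 for Mmp3, -1.19 for Mmp15, -1.04 for Mmp2, -0.99 for Mmp11 and -0.94 for Mmp17. Among Adamts genes it was -1.51 for Adamts9, -1.45 for Adamts17, -0.95 for Adamts12, -0.94 for Adamts15, -0.89 for Adamts1, -0.60 for Adamts4 and -0.44 for Adamts2. Timp3 changed by -0.99, but by -0.36 with the deposited table, where it was not called (adjusted p = 0.138). The call was also lost for Adamts6 with normexp (0.54, adjusted p = 0.0814) and for Adamts17 with normexp (-0.71, adjusted p = 0.0676), the deposited table (-0.27, 0.421) and the mean of its probes (-0.69, 0.221). For Mmp15, Adamts15 and Adamts17 the negative change is a smaller excess in MGT cultures, for Mmp2, Mmp3, Adamts1 and Timp3 a larger deficit, and Adamts4 and Adamts9 went with it to the other side of 0. Days 3 and 14 lie on different slides, and slide and day cannot be told apart in these values.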

How the results depend on the processing

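With only probes above background on every array, 23 members were tested in place of 38, so the counts are out of fewer members. Of the 23, 15 each were called at days 5, 7 and 10, 18 at day 14 and 20 for MGT day 14 against day 0. Averaged over days 17 of the 23 were called, beside 9574 of 13512 genes under the same filter. With only the arrays compared, 19 were called at day 14. Leaving out 1 array at a time gave 12 to 24 calls at day 3 (12 without day 3 lacZ replicate 1 and also without day 3 MGT replicate 1), 20 to 26 at day 5, 21 to 26 at day 7, 22 to 27 at day 10, 26 to 30 at day 14 and 26 to 31 averaged. Timp2 reversed with quantile normalization (0.0351 at day 10, 0.39 at day 14, 0.00543 averaged, 0.47 for the change between days) and with the deposited table (0.0368 at day 10, 0.22 at day 14, 0.36 for the change); the cause was not tested. Leaving out arrays moved Timp2 at day 10 between -0.33 and 0.0145, and Timp4 between -0.0133 and 0.61 at day 3, between -2.77 and 0.13 at day 14, and between -0.85 and 2.04 for lacZ day 14 against day 0. Among 4236 values of single members under alternatives, 4162 kept direction and side of the threshold, 44 lost and 19 gained a call, and 11 reversed. The Timp2 call at day 7 was lost in 24 settings, including the fit with a replicate block (adjusted p = 0.0584). The change of Adamts6 lost its call with the other background correction (0.54, adjusted p = 0.0814), that of Adamts17 under 3 settings and that of Timp3 with the deposited table (-0.36, adjusted p = 0.138). With the replicate block 29 members were called on average and no count moved by over 1.5 times. Low signal limits Adamts18, Adamts19, Adamts20, Mmp1b, Mmp10, Mmp15 and Timp4, which were below background on many arrays.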
